A study of Mus musculus with 2 samples.

Results

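The IFI200 (PYHIN) family is a set of interferon-inducible mouse genes that lie side by side on chromosome 1. Its 9 members described here are Ifi202b, Ifi203, Ifi204, Ifi205, Ifi207, Ifi209, Ifi211, Ifi213 and Mndal, out of 15059 genes in the fibroblast subcluster tables and 6477 distinct genes in the cluster tables. They were found as the rows that carry these gene names, and the set was chosen by measured values, because Ifi202b had been seen at 0 in the control library and its paralogues had not. The gap between Ifi202b and the other 8 members is therefore a description and carries no test.

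Interstitial cells of the infarcted mouse ventricle were profiled in droplets, by single-cell RNA sequencing of 2 libraries, 1 per genotype. Both genotypes carried the R26-eGFP transgene and PostnMCM, a tamoxifen-inducible Cre driven from Postn, a gene switched on in myofibroblasts after injury, and both received chow with 0.4 g/kg tamoxifen from the time of myocardial infarction (MI) until collection, 6 days later by the labels and a day after that by the study's methods. The control library came from PostnMCM hearts, and the other from Yapfl/fl;Wwtr1fl/+;PostnMCM hearts, in which Cre excises Yap1 (both copies floxed) and a single floxed copy of Wwtr1, the gene of TAZ, in Postn-expressing cells only. Live cells were sorted before capture, and the study's methods describe young adult mice. The labels state neither the genetic background of these mice nor how many hearts entered a library.

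The authors deposited, for each cluster of cells, the fraction of cells of each library with a normalized count above 0 for a gene. It is printed here as a percent and called the share of cells, and differences between libraries are in percentage points, the library labelled depleted minus control. With 1 library per group there was no replicate check, so no value has an error, a test or an interval. The study gives the cells per library and the mean reads per cell, but the tables give neither cells nor counts per cluster and library, so the depth behind each share is unknown. Genotype, genetic background and any other difference between the libraries cannot be told apart. The targeted transcripts were read first. The share of cells with Yap1 in fibroblast subclusters 0, 3, 4 and 5 was 46.2%, 23.3%, 57.5% and 30.4% in control and 56.2%, 43.5%, 40% and 47.6% in the other library, which is therefore called the library labelled depleted. Col1a1, Col1a2, Col3a1 and Dcn, which define fibroblasts, were at 100% in both libraries of every subcluster. Pdgfra, another fibroblast marker, differed between libraries, at 38.6%, 66.7%, 85% and 87% in control and 71.9%, 87%, 80% and 81% in the library labelled depleted. Wwtr1 differed by 9.2, -2, -20 and -14.3 points and Postn by 2.6, -27, 10 and 13 points. Excision of a floxed exon need not change what 3′ sequencing counts.

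IFI200 proteins bind nucleic acid through C-terminal HIN domains, and most carry an N-terminal pyrin domain through which inflammasome and sensing proteins are recruited. Aim2, at the edge of the same gene cluster, encodes the inflammasome sensor of cytosolic DNA, and Ifi204 a DNA sensor that acts with STING. The Ifi202b product, p202, has HIN domains but no pyrin domain and is known as an inhibitor of AIM2. Type I interferon raises the transcripts of many members. The Ifi202b transcript is known to vary among inbred mouse strains and to be scarce in C57BL/6 mice, the strain of the reference genome.

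On GRCm39 (GENCODE vM39) the members span 465611 bases of chromosome 1, from 173393846 to 173859456. Along the chromosome they run Ifi213 (173393846 to 173426881), Ifi209 (173458380 to 173475494), Ifi207 (173550990 to 173569383), Ifi204 (173574859 to 173594610), Mndal (173676539 to 173708447), Ifi211 (173723911 to 173740612), Ifi203 (173747971 to 173770436), Ifi202b (173790134 to 173810414) and Ifi205 (173839549 to 173859456). All are protein-coding, and all but Ifi209 lie on the minus strand. Ifi202b thus sits between Ifi203 and Ifi205. Ifi206, Ifi208, Ifi214 and the pseudogene Ifi203-ps are interspersed among or next to them.

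The promoters are shown because the family is interferon-inducible and its members did not move together. The RefSeq promoter table, made on GRCm38.p6, covers 250 bases before to 50 bases after each start and has entries for 8 of the 9 members. Each family entry matched chromosome 1 of GRCm39 exactly once, and the coordinates here are GRCm39. The interferon-stimulated response element core was searched on both strands as GAAA, any 2 bases and GAAA. It was found in entries of Ifi203, Ifi205, Ifi207, Ifi211, Ifi213 and Mndal, 6 of the 8 members, against 3.44% of all 32851 promoters of this length. Among the interferon-stimulated genes of the list used below, 17 of the 31 with an entry held the core. The entries of Ifi202b and Ifi209 do not hold these letters, though that of Ifi209 holds them with only the first base changed. The 30 bases around the element, 5′ to 3′ on the gene's strand with the element in capitals, are printed for these 6 members. Mndal and Ifi205 each hold a further core on the opposite strand, which is not printed, 54 bases before a second Mndal start and 24 bases after the Ifi205 start.
Mndal (chr1:173707770-173707799, minus, 36 bases before the start): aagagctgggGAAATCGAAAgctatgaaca
Ifi203 (chr1:173770074-173770103, minus, 35 bases before): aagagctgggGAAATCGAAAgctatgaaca
Ifi205 (chr1:173859436-173859465, minus, 134 bases before): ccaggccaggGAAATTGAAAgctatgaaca
Ifi211 (chr1:173740630-173740659, minus, 37 bases before): caaagccaggGAAATTGAAAgctatgaacg
Ifi207 (chr1:173569397-173569426, minus, 41 bases before): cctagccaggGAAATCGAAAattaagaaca
Ifi213 (chr1:173426892-173426921, minus, 73 bases before): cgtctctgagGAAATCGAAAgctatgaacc

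Mndal and Ifi203 have the same 30 bases. Both stretches lie in a noncoding part of an exon of a longer annotated transcript, 21 bases of the Ifi205 stretch lie in an annotated noncoding exon, and the other 3 lie upstream of the annotated gene. The 250 bases before the start of Ifi202b (minus strand, 4 of them in its annotated first exon, noncoding) are given in full for comparison. The letters of the gamma-activated site, TTCNNNGAA, are in capitals. This motif reads the same way on both strands, does not overlap the response element core, and was present in 8.3% of all promoters.
Ifi202b (chr1:173810411-173810660): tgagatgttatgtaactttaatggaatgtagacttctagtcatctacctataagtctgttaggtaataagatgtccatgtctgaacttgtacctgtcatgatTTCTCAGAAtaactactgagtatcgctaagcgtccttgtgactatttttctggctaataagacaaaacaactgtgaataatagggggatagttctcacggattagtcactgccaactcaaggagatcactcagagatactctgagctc

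The site begins 148 bases before the Ifi202b start, and no other family entry holds it. A match of letters is a description of the reference sequence, which need not be that of the mice, and is no evidence of binding.

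Ifi202b was at 0 in the control library of all 4 fibroblast subclusters. In the library labelled depleted, 75%, 82.6%, 70% and 57.1% of cells of subclusters 0, 3, 4 and 5 had a count. The transcript was thus seen in most cells of these subclusters in one library and was listed at 0 in the other, and the mean difference was 71.2 points. Shares were deposited to 3 decimals of a fraction, so that by rounding alone a 0 stands for less than 0.05% of cells. Control shares of all genes were spaced by at least 0.6, 3.3, 2.5 and 4.3 points in subclusters 0, 3, 4 and 5. A 0 there cannot be read more finely than these steps. The subclusters are cells of cluster 5 normalized again, so they are not independent of it or of each other's library. In the study's terms subcluster 3 holds proliferating cells and subcluster 5 secretory myofibroblasts, each with cells of both genotypes, while subclusters 0 and 4 come mainly from control hearts. Subcluster 1, by the study mainly from the floxed hearts, and subcluster 2, mainly from control hearts, were not compared. Both are missing from all subcluster values given here, including those of the gene lists.

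**Figure D1:**
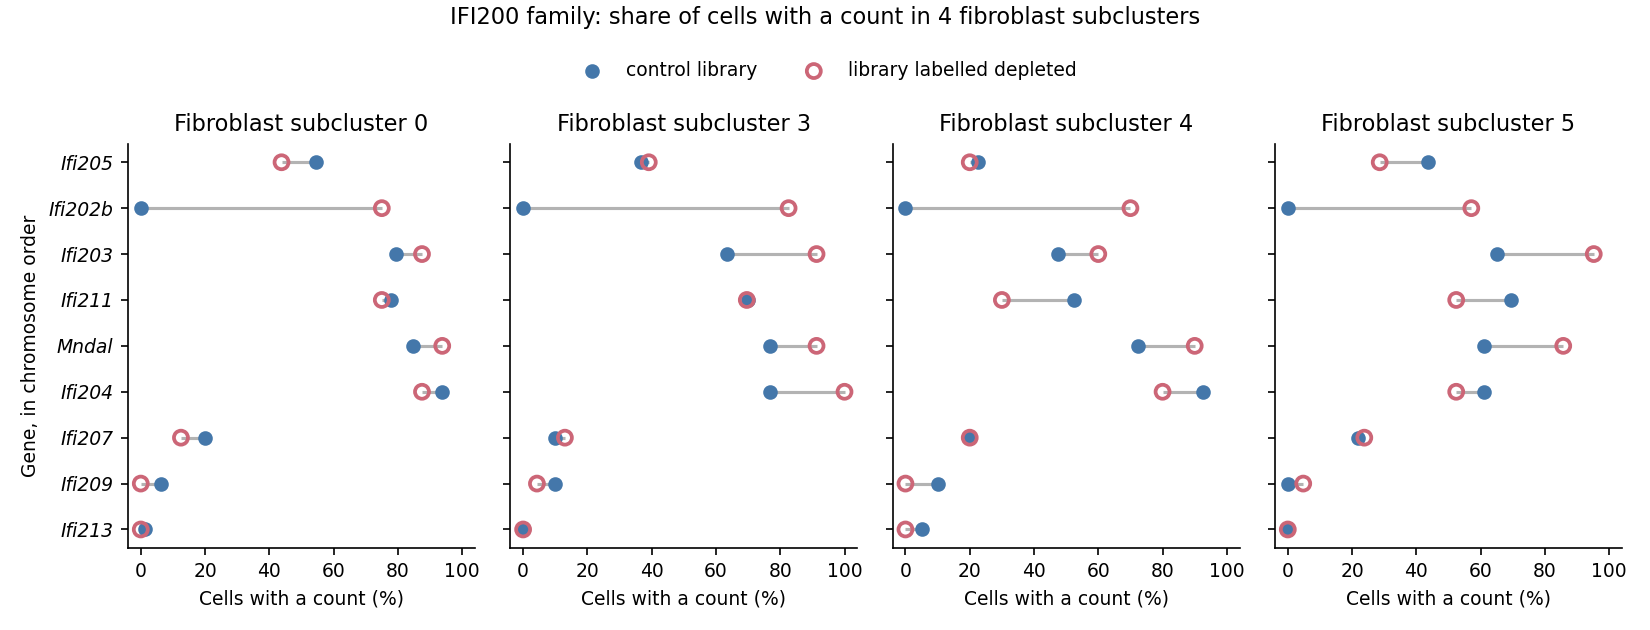
Share of cells with a count (x axis, percent) for the 9 IFI200 members (y axis, in chromosome order) in 4 fibroblast subclusters, with filled points for the control library, open points for the library labelled depleted and a line joining them. Ifi202b runs from 0 to between 57.1% and 82.6%, and no other member is at 0 in control in all 4 panels.

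This pattern was rare among all genes. A share of 0 in control together with at least 10% of cells in the library labelled depleted, in all 4 subclusters, was met by 2 of 15059 genes, or 0.0133%, and since the members were chosen by it nothing follows from the count. The other gene was Pnp2, a purine nucleoside phosphorylase gene on chromosome 14, at 18.8%, 17.4%, 10% and 14.3% in subclusters 0, 3, 4 and 5, the third of which lies exactly at the limit. The mirror pattern, 0 in the library labelled depleted and at least 10% in control, was met by 3 genes, or 0.0199%. They were the pseudogenes Gm5801 and H2af-ps2 and the secretoglobin gene Scgb3a1, none of them on chromosome 1. By size of the difference over all genes, Ifi202b was number 2 in subclusters 0 and 3, number 3 in subcluster 4 and number 13 in subcluster 5. Ftl1-ps2, a ferritin pseudogene on another chromosome, lay above it in each. By the mean over the 4 subclusters only Ftl1-ps2, at 91.4 points, lay above Ifi202b.

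**Figure D2:**
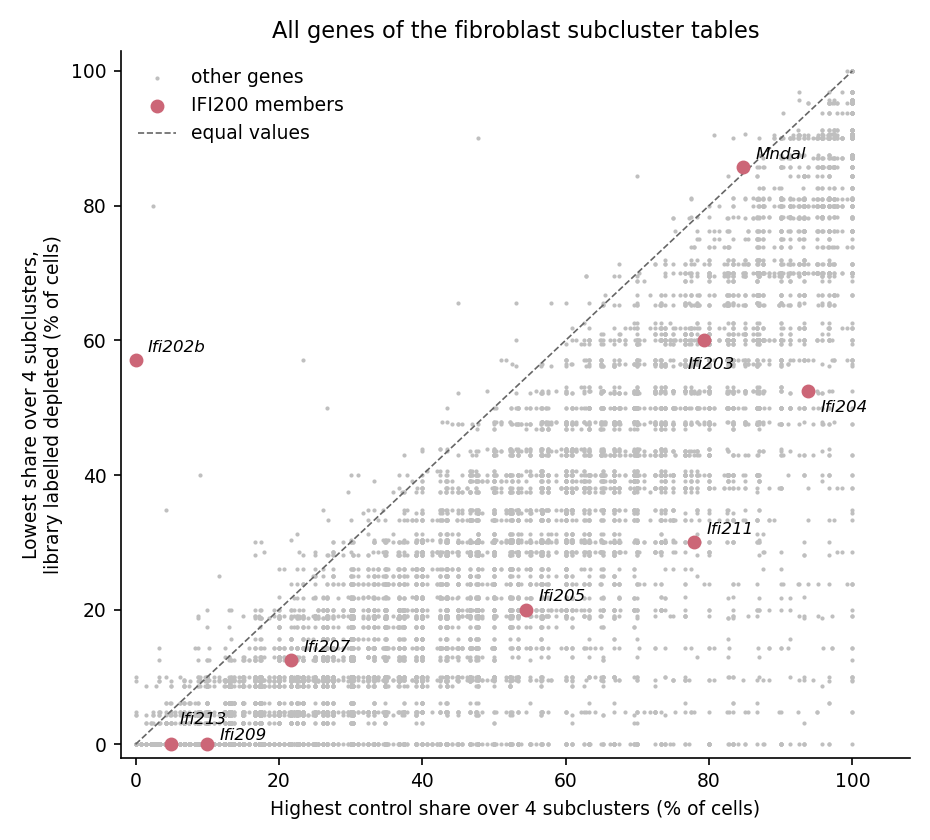
Each point is 1 of the 15059 genes of the subcluster tables, placed by its highest share in the control library (x axis, percent of cells) and its lowest share in the library labelled depleted (y axis, percent of cells) over the 4 subclusters; members are in colour and the dashed line marks equal values. Ifi202b lies on the y axis at 57.1%, Mndal just above the dashed line, and the other 7 members below it.

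Outside the subclusters, Ifi202b was listed in 6 of the 18 cluster tables, and its control share was 0 in all 6. These tables list a gene only if at least 25% of cells of either library had a count and the authors' log2 fold change was at least 0.25 in size, so a gene that is not listed has no value there. The share in the library labelled depleted was 80.3% in cluster 13, 71.7% in cluster 5, the fibroblasts, 65.1% in cluster 3, 57.8% in cluster 0, 27.8% in cluster 12 and 27.1% in cluster 11. The study names clusters 0, 3, 11, 12 and 13 macrophages or monocytes, so Ifi202b was listed in every cluster so named and in fibroblasts. The order holds for these values alone, since no spread over samples can be given, and clusters 12 and 11 lay 0.7 points apart. Lyz2, a myeloid gene, was at 99% to 100% in both libraries of clusters 0, 3, 12 and 13, but also in neutrophil clusters 1 and 18, so it does not set macrophages apart here. Adgre1, a macrophage gene, was at 77.4% in control and 89.9% in the library labelled depleted in cluster 0 and at 74.8% and 75.8% in cluster 3. C1qb was at 52.6% and 26.8% in cluster 13, and for cluster 12 no marker of the macrophage list other than Lyz2 was listed. In cluster 11 the markers were mixed and differed between libraries, with Lyz2 at 76.4% in control and 45.8% in the library labelled depleted, the dendritic cell gene Flt3 at 50% and 75% and the lymphocyte receptor gene Klrk1 at 1.4% and 41.7%, so it is called here by its number. The 12 tables without Ifi202b cover the B cell, T cell, natural killer cell, neutrophil and dendritic cell clusters, and a level in those cells, or a background from free RNA, cannot be read from them. In all, 10 tables held Ifi202b and all 10 gave 0 in control. Over all 15431 listed rows of the cluster tables a control share of 0 was found in 1.12%, and since the family was chosen for this value of Ifi202b nothing is read from that share or from the next count. Of 444 genes listed in at least 6 cluster tables, a limit set by the 6 listings of Ifi202b itself, Ifi202b was the only one at 0 in control in every listing, and no gene was at 0 in the library labelled depleted in every listing.

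Ifi203 and Mndal, which lie close to Ifi202b on either side of Ifi211, were the paralogues higher in all 4 subclusters. Ifi203 encodes a PYHIN protein with a pyrin domain, and its shares in subclusters 0, 3, 4 and 5 were 79.3%, 63.3%, 47.5% and 65.2% in control and 87.5%, 91.3%, 60% and 95.2% in the library labelled depleted. Subclusters 3 and 5 had the wider gaps, of 28 and 30 points, against 8.2 and 12.5 points in subclusters 0 and 4. Mndal, named for its likeness to the human myeloid nuclear differentiation antigen, was at 84.8%, 76.7%, 72.5% and 60.9% in control and 93.8%, 91.3%, 90% and 85.7% in the library labelled depleted. Its lowest value in the library labelled depleted, 85.7%, was above its highest control value, 84.8%. This is not particular to Mndal. Among other genes, Abhd4 (45% highest in control and 47.6% lowest in the other library), Angptl4 (90.3% and 93.8%) and Basp1 (53.1% and 60%) met it too. The share of all genes that meet it was not counted, and the subclusters of a library are not replicates. The values of Ifi203 overlapped between libraries. The mean differences were 19.7 points for Ifi203 and 16.5 points for Mndal.

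Ifi204, Ifi205 and Ifi211 were detected in many fibroblasts of both libraries, and all 3 were lower in the library labelled depleted in subclusters 0, 4 and 5. In subcluster 3 they differed in direction. For Ifi204, the DNA sensor gene, shares in subclusters 0, 3, 4 and 5 were 93.8%, 76.7%, 92.5% and 60.9% in control and 87.5%, 100%, 80% and 52.4% in the library labelled depleted. It was higher by 23.3 points in subcluster 3 and lower by 6.3 to 12.5 points in the other 3. Ifi205 was at 54.5%, 36.7%, 22.5% and 43.5% in control and 43.8%, 39.1%, 20% and 28.6% in the library labelled depleted, lower in 3 and higher in 1. Ifi211 was at 77.9%, 70%, 52.5% and 69.6% in control and 75%, 69.6%, 30% and 52.4% in the library labelled depleted. It was the only member lower in all 4 subclusters, with differences from -22.5 to -0.4 points.

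Ifi207, Ifi209 and Ifi213 were detected in few fibroblasts. Ifi207 was at 10% to 21.7% in control and 12.5% to 23.8% in the library labelled depleted, and its 4 differences ran from -7.5 to 3 points. Ifi209 was at 0% to 10% in control and 0% to 4.8% in the other library. Its control share of 0 in subcluster 5 stood against 4.8% in the library labelled depleted, so a 0 in 1 subcluster is not particular to Ifi202b. Ifi213 was at 1.4%, 0%, 5% and 0% in control and at 0% in all 4 subclusters of the library labelled depleted. Of the family genes that are no members, Ifi206 was at 2.1%, 0%, 5% and 8.7% in control and Ifi214 at 0%, 3.3%, 0% and 8.7%, and both were at 0% in the library labelled depleted. Ifi202a, Ifi208, Ifi203-ps, Pydc3, Pydc4 and Pyhin1 have no row in the subcluster tables.

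Reads of near-identical paralogues can be dropped or split, which bears on Ifi209 and Ifi211. Of the 100-base words in the last 500 bases of the longest annotated transcript, where these 3′ libraries are counted, 57.6% of those of Ifi209 were also found in Ifi214 and 58.1% of those of Ifi211 in Ifi205. Their shares are uncertain for that reason. Since Ifi205 holds those words too, its share is uncertain as well wherever such reads were given to either gene. Of the words of Mndal 2% were also found in Ifi205. Of the words from the ends of Ifi202b, Ifi203, Ifi204, Ifi205, Ifi207 and Ifi213 none was found in another family gene. The words are those of GENCODE vM39 transcripts, while the study counted reads against an NCBI annotation, whose transcript ends were not compared.

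The members past a difference of 10 points are given beside all genes, and since this contrast was known when they were chosen, nothing is read from the counts. In subcluster 0, 1 of 9 members was at least 10 points higher (Ifi202b) and 1 lower (Ifi205), where 10.8% of all genes were higher and 9.85% lower. In subcluster 3 there were 4 higher (Ifi202b, Ifi203, Ifi204 and Mndal) and 0 lower, against 13.1% and 17.1%. In subcluster 4 there were 3 higher (Ifi202b, Ifi203 and Mndal) and 3 lower (Ifi204, Ifi209 and Ifi211), against 24.7% and 20.3%. Subcluster 5 had 3 higher (the same as subcluster 4) and 2 lower (Ifi205 and Ifi211), against 21.2% and 14.3%. Over the 4 subclusters the 8 paralogues gave 7 of 32 values at least 10 points higher and 6 of 32 at least 10 points lower. Restricted to genes that reached 25% of cells in one or both libraries, the background was larger, and 16.8%, 18.2%, 33.5% and 29.7% were at least 10 points higher in subclusters 0, 3, 4 and 5 and 13.9%, 23.3%, 24.8% and 21.5% lower. The median over the 9 members was -2.9, 3, -2.5 and 2.1 points in subclusters 0, 3, 4 and 5, beside 0 for all genes in each. Shares in subcluster 4 of the library labelled depleted were spaced 10 points apart for all genes, so a difference of 10 points is coarse there, while in the other 7 pairs of library and subcluster the step was at most 4.8 points.

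Of the 9 members 7 were listed in some cluster table, Ifi211 and Ifi213 in none, and 15 of the 18 tables held at least 1 member. Of 38 listings 23 were higher in the library labelled depleted and 15 lower, where 45.4% of all listed rows were higher and 49.9% lower. Without Ifi202b the 8 paralogues had 17 higher and 15 lower. None of these 32 listings was at 0 in control, and their lowest control share was 11.8%.

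**Figure D3:**
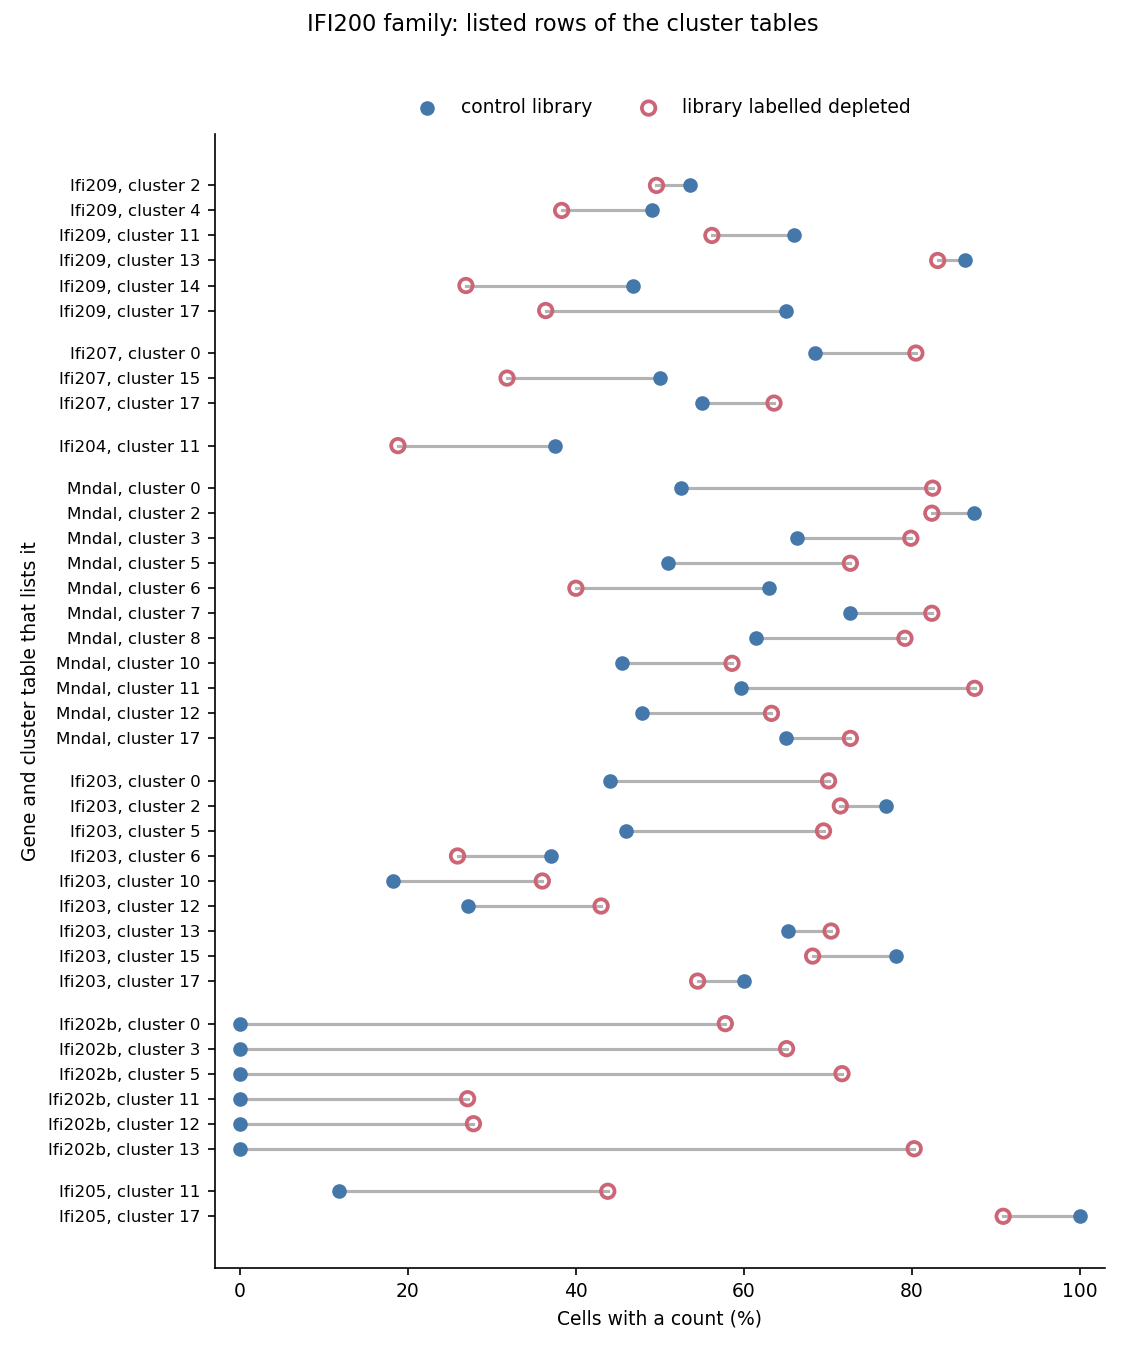
Share of cells with a count (x axis, percent) in each cluster table that lists a member (y axis, gene and cluster number), with filled points for the control library and open points for the library labelled depleted. All 6 Ifi202b rows start at 0, while the 32 rows of its paralogues start between 11.8% and 100% and point both ways.

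Mndal was the member listed most often, in 11 cluster tables, 9 of them higher. Clusters 0, 3 and 12 are named macrophages or monocytes by the study. There Mndal went from 52.5% in control to 82.5%, from 66.3% to 79.9% and from 47.9% to 63.3%. In the T cell clusters 7, 8 and 10 its control shares of 72.7%, 61.4% and 45.5% stood against 82.4%, 79.2% and 58.6%. Fibroblasts (cluster 5) were at 51% and 72.7%, cluster 11 at 59.7% and 87.5%, and dendritic cells (cluster 17) at 65% and 72.7%. The 2 exceptions were B cells (cluster 2), at 87.4% in control and 82.4% in the library labelled depleted, and the proliferating cluster 6, at 63% and 40%. Markers of other cells also differed between libraries in some of these clusters. In cluster 7 the natural killer cell genes Klrb1c and Nkg7 were at 5.1% and 58.6% in control and 32.1% and 82.4% in the library labelled depleted. Cluster 10 had Lyz2 at 54.5% and 28% and Cd74 at 63.6% and 27.4%, and cluster 6 had H2-Ab1 at 44.4% and 19.4%. The part of these shifts in the values of members there was not tested. Mndal was seen in over 40% of cells of every type that lists it, except for the 40% of cluster 6.

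Ifi203 was listed in 9 tables, 5 higher and 4 lower. Its shares went from 44.1% in control to 70.1% in cluster 0, from 46% to 69.5% in fibroblasts, from 27.1% to 43% in cluster 12, from 18.2% to 36% in cluster 10 and from 65.3% to 70.4% in cluster 13. Control shares in cluster 10 are coarse, with markers at 27.3%, 36.4%, 45.5% and 54.5%, so the values of Ifi203 and Mndal there are coarse too. The shares of Ifi203 were lower in B cells, at 77% and 71.5%, in cluster 6, at 37% and 25.9%, in cluster 15, which the study left unidentified, at 78.1% and 68.2%, and in dendritic cells, at 60% and 54.5%. Cluster 15 had the dendritic cell genes Siglech and Cd74 at 100% in both libraries and H2-Ab1 at 100% and 95.5%. Genes of other lists were counted there too, such as Lyz2 at 56.2% and 31.8%. In the tables that list both Ifi203 and Mndal (clusters 0, 2, 5, 6, 10, 12 and 17), both pointed the same way except in dendritic cells. There the differences, -5.5 and 7.7 points, are coarse. The members listed in dendritic cells were at 36.4%, 54.5%, 63.6%, 72.7% and 90.9% in the library labelled depleted, with no value in between.

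Ifi209 was lower in all 6 tables that list it. Its control and depleted shares were 53.6% and 49.6% in B cells, 49.1% and 38.3% in T cells of cluster 4, and 66% and 56.2% in cluster 11. They were 86.3% and 83.1% in macrophage cluster 13, 46.8% and 26.9% in natural killer cells (cluster 14) and 65% and 36.4% in dendritic cells. The gene was thus counted in 26.9% to 86.3% of cells of these immune clusters and in at most 10% of cells of the fibroblast subclusters, which were normalized separately, and its overlap in sequence with Ifi214 applies here too.

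Ifi207, Ifi205 and Ifi204 were listed in few tables. Ifi207 went from 68.5% in control to 80.5% in cluster 0 and from 55% to 63.6% in dendritic cells, and was at 50% and 31.8% in cluster 15. Ifi205 was at 11.8% in control and 43.8% in the library labelled depleted in cluster 11, and at 100% and 90.9% in dendritic cells. Ifi204 was listed in cluster 11 alone, at 37.5% and 18.8%. The values of cluster 11 stand beside the shift of its markers given above, whose part in them was not tested. Among the neighbours in the family, Aim2 was listed in cluster 9 (29.4% in control and 41.3%), Ifi208 in cluster 7 (30.3% and 43.4%) and Ifi214 in clusters 7 (10.1% and 25.2%) and 8 (27.5% and 35.4%), all higher.

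Position along the chromosome was compared with the differences in the subclusters. Within 1 Mb on either side of the members' span GENCODE has 89 genes, of which 16 are in the subcluster tables, the 9 members and 7 others. Of these 7, Dusp23 (18.9 points), Aim2 (11.4), Cadm3 (9.8) and Ifi206 (4) were among the 5 with the largest mean absolute difference. Dusp23, a phosphatase gene, was lower in all 4 subclusters, by 15 to 26.7 points. Aim2 was at 6.9%, 0%, 5% and 8.7% in control and 0%, 4.3%, 0% and 38.1% in the library labelled depleted, so that its difference lay in subcluster 5. None of the 15 genes around Ifi202b in this window had a control share of 0 in all 4 subclusters together with a share in the library labelled depleted.

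**Figure D4:**
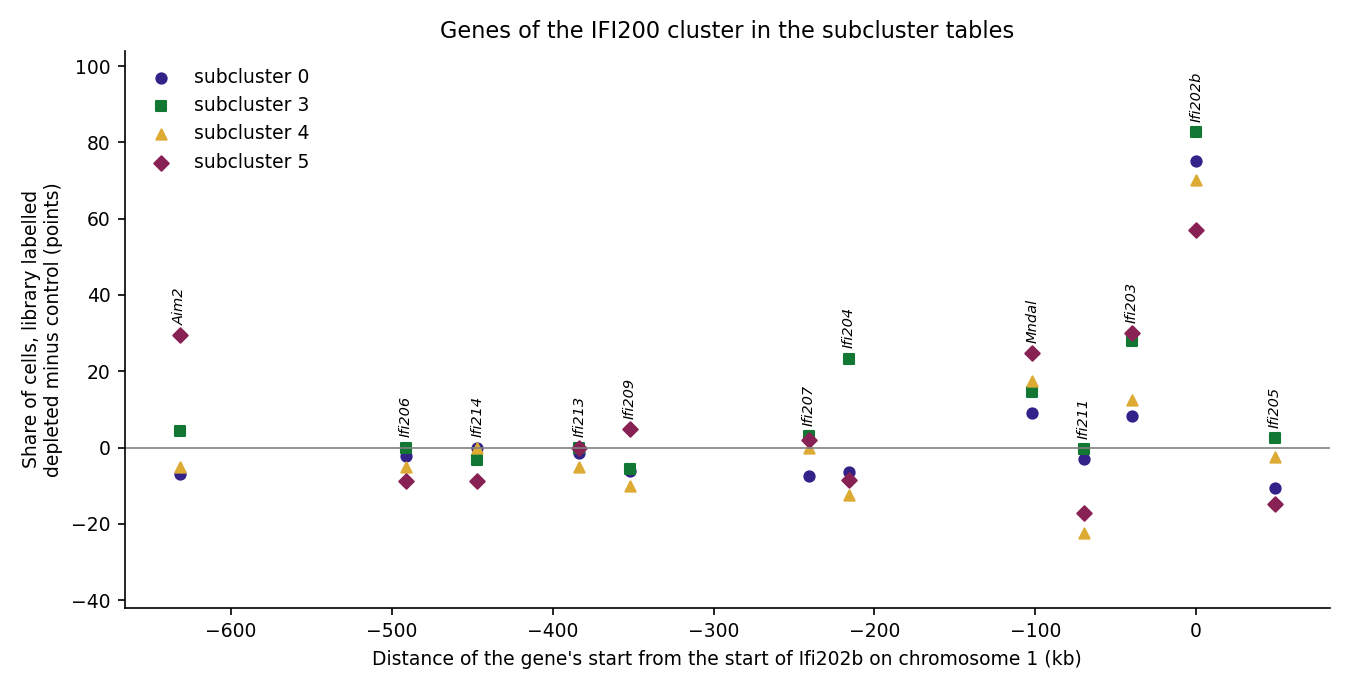
Difference in share of cells (y axis, percentage points, library labelled depleted minus control) against the distance of each gene's start from that of Ifi202b (x axis, kb) for the 12 genes of the IFI200 cluster that are in the subcluster tables (the 9 members, Aim2, Ifi206 and Ifi214), with a symbol for each fibroblast subcluster. Ifi202b stands at 57.1 to 82.6 points, Ifi203 and Mndal lie above 0 in all 4 subclusters, and Ifi211, between them, lies below.

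The other genes of the interferon pathway give the setting for these values. Of 40 interferon-stimulated genes on a list, 39 were in the subcluster tables. The number at least 10 points higher was 18, 15, 24 and 24 in subclusters 0, 3, 4 and 5, and the number at least 10 points lower was 0, 5, 4 and 3, beside the shares of all genes given above. The list's median difference was 9.3, 5.8, 12.5 and 17.4 points. Ifit1, which encodes an RNA-binding antiviral protein, was at 32.4%, 16.7%, 20% and 13% in control and 53.1%, 34.8%, 80% and 38.1% in the library labelled depleted, a mean difference of 31 points. Trim30a and Rtp4 each had a mean difference of 30.8 points and were likewise higher in all 4 subclusters. At the other end stood Slfn5 (-7.1 points), Ifi27 (-2.5) and Igtp (-2.5). Over the list, 32 of 39 genes (82.1%) had a mean difference above 0, against 3 of the 9 members (33.3%) and 50.5% of all genes.

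Receptors and signalling genes of the interferon pathway, 16 of 16 found, had 5, 5, 9 and 5 members at least 10 points higher and 0, 2, 1 and 1 lower in subclusters 0, 3, 4 and 5. Their medians were 3.7, 0, 13.8 and 4.4 points. Of all genes, 10.8%, 13.1%, 24.7% and 21.2% were that much higher and 9.85%, 17.1%, 20.3% and 14.3% that much lower, which is the background for this list and the next. Irf7, a transcription factor of the type I interferon response, was highest by the mean difference (25.2 points) and was followed by Usp18, an inhibitor of interferon receptor signalling (21.2). The lowest were Ifngr1 (-6.4), a receptor chain for interferon gamma, Irf8 (-2.9) and Socs3 (-1.5). For DNA sensing and the inflammasome, the pathway in which IFI200 proteins act, 14 of 15 genes were found, with 2, 3, 5 and 5 at least 10 points higher, 1, 5, 4 and 3 lower and medians of 1, 3.2, 0 and 0.6 points. The highest mean differences were those of Ddx41 (24.7), Gsdmd (13.3) and Irf3 (12.7). The lowest were the kinase genes Ikbke (-11.2) and Tbk1 (-11) and the adaptor gene Sting1 (-9.5). Sting1 was at 67.6%, 66.7%, 77.5% and 26.1% in control and 65.6%, 60.9%, 40% and 33.3% in the library labelled depleted.

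**Figure D5:**
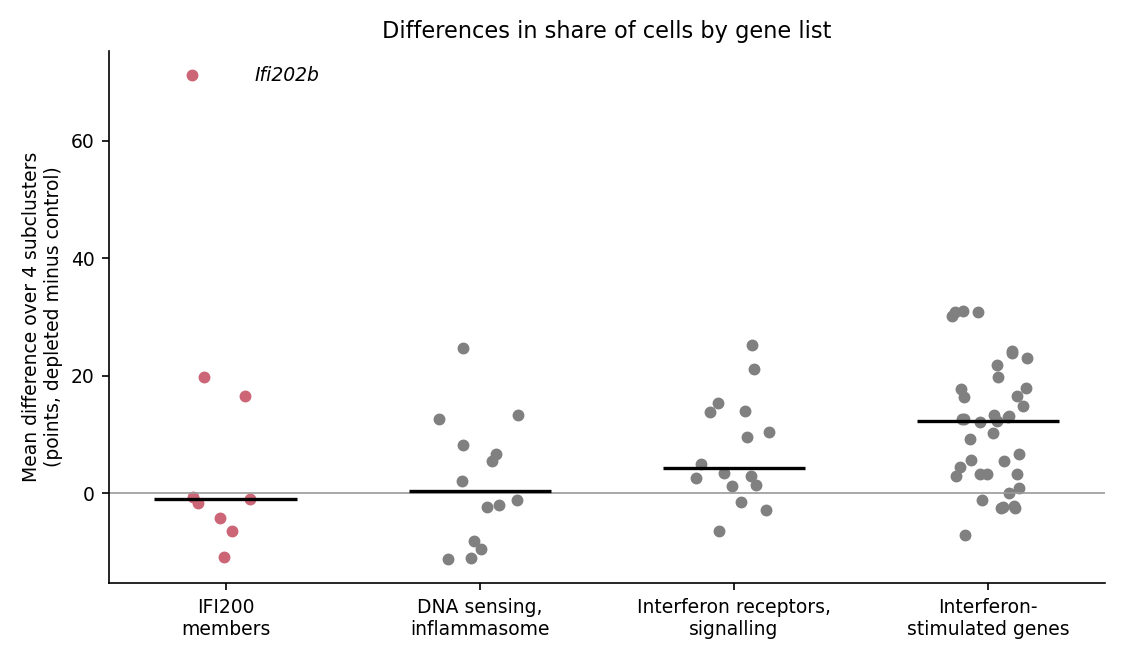
Mean difference in share of cells over the 4 fibroblast subclusters (y axis, percentage points, library labelled depleted minus control) for each gene of the IFI200 family and of 3 pathway lists (x axis), with a black line at each list's median. Ifi202b stands at 71.2 points above every gene of the 3 lists, the median of the members is -1, and that of the interferon-stimulated genes is 12.3.

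Transcripts of other cell types were counted in the fibroblast subclusters, some less and some more often in the library labelled depleted. Of 7 macrophage and monocyte markers, 7, 5, 5 and 5 were lower in subclusters 0, 3, 4 and 5, and their summed shares went from 409.1, 383.3, 402.5 and 334.7 points in control to 250, 304.2, 310 and 228.6 points. Lyz2 was at 80% to 90% in control and 47.6% to 70% in the library labelled depleted. Other markers of the list went the other way, with Csf1r higher by 6.5, 12.5 and 10.8 points in subclusters 3, 4 and 5 and C1qa by 12.5 and 5.8 points in subclusters 4 and 5. Of 5 neutrophil markers 5, 5, 5 and 3 were lower, and all 4 erythroid markers were lower in each subcluster, down to 0 summed points in subclusters 4 and 5. The 3 natural killer cell markers found were lower in sum in all 4 subclusters. Their sums were 17.2 and 6.2, 23.3 and 4.3, 22.5 and 0, and 26 and 0 points. So were the sums of the 5 dendritic cell markers found and the 3 cardiomyocyte markers. Of the natural killer cell markers 1 was higher in subcluster 0. Of the dendritic cell markers 1, 1 and 2 were higher in subclusters 3, 4 and 5, and 1 cardiomyocyte marker in subcluster 5. The 3 T cell markers found moved the other way in subclusters 3, 4 and 5, with sums of 23.4, 22.5 and 13 points in control and 73.8, 70 and 71.5 points. The 3 endothelial markers were higher in sum in all 4 subclusters (44.1 and 53.1, 30 and 39.1, 47.5 and 50, and 8.6 and 14.3 points), although only 1, 1, 1 and 2 of them were higher and 2, 1, 1 and 1 lower. The 4 B cell markers were higher in sum in subclusters 0, 3 and 4 (11.8 and 15.6, 10 and 13, and 15 and 20 points) and lower in subcluster 5 (21.6 and 9.6 points), with 1, 2, 1 and 1 of them higher and 3, 0, 3 and 3 lower. These shares moved with the normalization and the cells included. In cluster 5, which holds all fibroblasts, S100a8 was at 32.6% in control and 5.9% in the library labelled depleted and S100a9 at 49.7% and 9.1%, against 78.3% to 96.7% and 38.1% to 71.4% for both genes in the subclusters. Over the same step Mndal was at 51% in control in cluster 5 and 60.9% to 84.8% in the subclusters. Ifi202b was also counted in macrophage clusters of the library labelled depleted, and the part of macrophage RNA in its fibroblast shares was not tested.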

How the data were processed

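Droplet single-cell RNA-seq (10x Chromium, V3.1 chemistry) was performed on 1 control library and 1 library labelled depleted. Per the labels and the study's methods, the authors aligned reads with Cell Ranger 6.1.1 to GRCm39, normalized with SCTransform in Seurat, clustered the cells, reclustered fibroblasts, and compared both libraries within each cluster. No doublet caller is named, so doublets may remain. The deposited values used here are the authors' fractions of cells with a normalized count above 0 in each library, read as percent. The deposited tables also hold the authors' average log2 fold changes, p-values and adjusted p-values, which were not used. The 18 cluster tables (0 to 15, 17 and 18) are limited to genes of at least 25% of cells and 0.25 in log2 fold change. The 4 subcluster tables are not limited. Cluster 16 and subclusters 1 and 2 were not analysed here.

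Members were matched by gene name. Differences, counts and ranks were computed in Python 3.11.15 with pandas 2.3.3 over whole tables, by scripts tested on simulated data. The members and gene lists were chosen with earlier results of these data known. Besides the members, the text names other family genes, the genes that share the pattern of Ifi202b or its mirror, the 5 neighbours with the largest mean absolute difference within 1 Mb, and per list the 3 genes with the largest mean difference in each direction. Some genes that this rule would name are not reported here. Ftl1-ps2 was named after its values were seen. Of the subcluster gene names, 14020 of 15059 were found in GENCODE vM39. Each group held 1 library, so no test was made. The study states cells per library and mean reads per cell, but the depth and cells behind each share per cluster were not given in the tables. Alternatives were other size limits, other scales, a stricter detection limit and leaving out clusters or subclusters.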

Additional observations from a re-analysis of the deposited data

Results flagged for a closer look

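Ifi203, Ifi204, Ifi205, Ifi207 and Mndal were picked out because each was at least 10 points higher in the library labelled depleted in one cell population and at least 10 points lower in another, and the difference between populations was not tested. Ifi203 was at 30 points in fibroblast subcluster 5 and -11.1 points in cluster 6, and Mndal at 30 points in macrophage cluster 0 and -23 points in the same cluster 6. The study describes cluster 6 as proliferative and drawn mostly from floxed hearts. It describes cluster 10 likewise, and there both genes went the other way, Ifi203 at 17.8 points and Mndal at 13.1 points. Ifi204 was at 23.3 points in fibroblast subcluster 3 and -18.7 points in cluster 11. Ifi205 went the opposite way in cluster 11, at 32 points, and was at -14.9 points in fibroblast subcluster 5. Ifi207 was at 12 points in macrophage cluster 0 and -18.2 points in cluster 15. Ifi202b could not meet such a condition, since with a control share of 0 it cannot be lower in the library labelled depleted.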

How the results depend on the processing

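No paired analysis was possible because there was a single library per genotype. Neither alternative for the control share of Ifi202b, a looser limit of 1% and leaving out clusters 6, 9 and 10, which do not list it, could change the 10 tables at 0. Counting only rows with at least 25% of cells in both libraries lowered the member listings that were higher from 23 to 15. Of the 8 lost, 6 were those of Ifi202b, which drops out by construction, 1 was Ifi203 and 1 Ifi205. The 2 genes at 0 in control in all 4 subclusters became 1 (Ifi202b) with a limit of 25% in the library labelled depleted, 5 when any 3 subclusters sufficed and 8 in subclusters 3 and 5 alone, an alternative chosen after seeing the data. The mirror count of 3 became 0, 7 and 10. Of 36 pairs of member and subcluster, 11 were at least 10 points higher, 7 of them in subclusters 3 and 5, and 6 were lower, or 2 in these subclusters, 12 with a size of 5 points and 1 with a size of 20 points. No difference above or below 0 changed direction, and of 28 alternatives for the counts 17 stayed within 1.5 times. Depth and cell numbers per cluster and library, which the tables do not give, limit all values.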
